A study of Mus musculus with 13 samples.

Results

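Gria2, Gria3 and Gria4 encode subunits of the AMPA-type glutamate receptor, and Grik1 and Grik2 encode subunits of the kainate-type receptor. They are the 5 glutamate receptor genes, of 54307 genes in the deposited count table, whose RNA editing and expression are described here. They were listed by name, and every known editing site inside them with a reference A on the gene's strand was taken, which gave 442 of the 64465 such sites in the deposited comparison tables. Gria2 held 42 sites, Gria3 21, Gria4 138, Grik1 3 and Grik2 238. Of these, 47 lay in coding sequence and 395 in introns of the coding transcripts, and none lay in an untranslated region.

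The libraries are strand-specific RNA-seq of whole brain from 13 C57BL/6 mice, each a separate animal, in groups that differ in an Adar allele carrying the P195A substitution in ADAR1. The wt group held 3 mice (2 female, 1 male, aged 48, 48 and 74 days), P195A/+ held 3 (2 female, 1 male, 43 days), P195A/P195A held 4 (3 female, 1 male, 42, 42, 48 and 48 days) and P195A/- held 3 (2 female, 1 male, 42 days). The oldest wt mouse was also the only male of that group, so its age and sex cannot be told apart. No P195A/+ or P195A/- mouse shared an age, or an age at weaning, with a wt mouse. In their comparisons with wt, genotype therefore cannot be told apart from age. Among the mutants, only P195A/P195A replicates 3 and 4 were of the same age as wt mice, 48 days. The last group is named P195A/- after its simple genotype label. Its longer label gives P195A for both Adar alleles and AdarKO/+ beside them, with no explanation. The labels name no treatment and no tissue-specific driver. The comparisons ask whether the allele, in these combinations, altered editing or expression.

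Adenosine deaminases acting on RNA (ADARs) convert adenosine to inosine in double-stranded RNA, and sequencing reads inosine as G. ADAR1, the product of Adar, has a long interferon-inducible isoform whose Z-nucleic-acid-binding domain holds the P195 residue. ADAR2, the product of Adarb1, is the enzyme known for the Q/R site of Gria2, while Adarb2 encodes a brain protein of the family without known editing activity. The Q/R site swaps a glutamine codon for an arginine codon in the pore loop, and in Gria2 this makes the AMPA receptor almost impermeable to calcium. The R/G site, at the end of an exon just before the alternative flip and flop exons of the AMPA subunits, changes how fast receptors recover from desensitization. In Grik2 the I/V and Y/C sites in the first transmembrane segment also change the protein. Such sites pair with a complementary stretch that usually lies in the following intron.

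The sequences around these sites are shown because the results turn on which adenosines of related stretches carried G. They were read from GENCODE M21 transcripts (GRCm38, also called mm10), are written 5′ to 3′ on the gene's strand, and capitals mark each A whose level was at least 1% over all libraries. The first 3 windows end at the last base of exon 13 of Gria2 and Gria3 and exon 14 of Gria4, on chr3:80692285-80692331 (minus strand), chrX:41654207-41654253 (plus strand) and chr9:4456005-4456051 (minus strand). In each, the second capital is the R/G site and the first is the last base of the codon before it.
Gria2 R/G: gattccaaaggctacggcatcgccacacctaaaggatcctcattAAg
Gria3 R/G: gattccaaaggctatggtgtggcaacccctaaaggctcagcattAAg
Gria4 R/G: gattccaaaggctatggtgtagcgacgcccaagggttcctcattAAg
The Q/R windows of Gria2 (chr3:80706892-80706937), Grik1 (chr16:87936101-87940568) and Grik2 (chr10:49240782-49244355) are all on the minus strand, and the kainate windows run across a splice junction. The Q/R site is the A of the central cag codon, the first capital in Gria2, the only capital in Grik1 and the last in Grik2.
Gria2 Q/R: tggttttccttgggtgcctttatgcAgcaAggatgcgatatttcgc
Grik1 Q/R: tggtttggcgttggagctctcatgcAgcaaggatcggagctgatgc
Grik2 Q/R: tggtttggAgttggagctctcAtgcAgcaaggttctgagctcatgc
The window with the I/V site (first capital) and the Y/C site of Grik2 lies on chr10:49272756-49272809 (minus strand).
Grik2 I/V and Y/C: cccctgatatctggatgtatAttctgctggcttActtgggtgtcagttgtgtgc

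The 3 R/G windows were alike over most of their 47 bases: 38 bases (80.9%) were identical between Gria2 and Gria3, 38 between Gria2 and Gria4, and 39 (83.0%) between Gria3 and Gria4. Among the Q/R windows of 46 bases, Grik1 and Grik2 shared 42 (91.3%), while Gria2 shared 31 (67.4%) with Grik1 and 29 (63.0%) with Grik2. In all 3 R/G windows the A just before the R/G site carried G at a low level, and the ends of the windows, attaag, were the same.

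An editing level is the share of G among A and G reads at a site. Of the 47 coding sites, 14 had a level of at least 1% over all libraries, from 1.37% to 99.3%, and 33 were below 1%, from 0 to 0.781%. Of the 14, 9 changed the amino acid and 5 did not, and 8 of the 14 were followed by a G, against 12 of the 33 below 1%. At the 33 lower sites G made up 0.108% of reads and the bases that editing does not produce, C and T, 0.0239%. Read depth at the coding sites of Gria2 was between 183 and 370 reads per library where every library had at least 10 reads, and at the Grik1 Q/R site it was between 11 and 29, so the precision differs widely between genes. Duplicate reads were left out by the authors, but the reads carry no molecular identifiers, so the Wilson 95% intervals given below cover counting error only.

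Sites were called at an adjusted p under 0.05, and effects on editing are given as the odds of an edited read in a genotype over those in the other. Editing did not pass the edgeR test of a difference between genotypes at any AMPA receptor coding site within its level range, 1 to 99% pooled. The Gria2 Q/R site was edited almost completely in all 13 mice and lay above that range. At the Gria2 Q/R site (chr3:80706912, exon 11 of 16, codon 607, CAG to CGG), the level was 100, 98.7 and 99.6% in wt, 99.1, 99 and 99.6% in P195A/+ mice, 99.6, 97.2, 99 and 99.6% in P195A/P195A mice, and 100, 99.2 and 99.7% in P195A/-. All 4 groups overlapped, and the lowest library, P195A/P195A replicate 2, had 206 of 212 reads edited (Wilson 95% interval 94.0 to 98.7%). The depth was 209 to 353 reads per library. Two-sided exact permutation tests gave p = 0.6 for P195A/+ against wt, 0.457 for P195A/P195A against wt, 0.7 for P195A/- against wt and 0.286 for P195A/- against P195A/P195A. With these group sizes the smallest p possible is 0.1 for 3 against 3 mice and 0.057 for 4 against 3. A p under 0.05 was therefore out of reach whatever the levels.

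The A located 4 bases after the Gria2 Q/R site (chr3:80706908) is the third base of codon 608, and CAA and CAG both encode glutamine. Its level averaged 22.1% ± 3.38 (SD, n = 3) in wt, 24.5% ± 1.09 (n = 3) in P195A/+ mice, 21.9% ± 1.35 (n = 4) in P195A/P195A and 23% ± 5.49 (n = 3) in P195A/-. This neighbour was thus edited in a minority of reads, a few bases from a site edited in nearly all. The homologous A after the Q/R site of Grik2 (chr10:49244326) was at 0.781% over all libraries.

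The R/G sites were edited to different extents in the 3 AMPA genes. At the Gria2 R/G site (chr3:80692286, exon 13, codon 764, AGA to GGA) the level was 66.4, 70.6 and 73.1% in wt, 72.2, 69.9 and 72.3% in P195A/+ mice, 71.9, 75.4, 70.2 and 70.4% in P195A/P195A mice, and 69.1, 69.0 and 67.8% in P195A/-. The wt mice overlapped every other genotype, while all P195A/- mice were below all P195A/+ and P195A/P195A mice. The odds of an edited read in P195A/P195A were 1.09 times those in wt (95% interval 0.822 to 1.44), and in P195A/- 0.93 times (0.675 to 1.28). In P195A/- they were 0.855 times those in P195A/P195A (0.650 to 1.13), with an edgeR adjusted p of 0.847.

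The Gria3 R/G site (chrX:41654252, exon 13 of 16, codon 769, AGA to GGA) was the most edited of the R/G sites. Its level was 91.6, 94.3 and 91.2% in wt, 91.4, 92.2 and 91.2% in P195A/+ mice, 94.1, 92.8, 96.0 and 91.4% in P195A/P195A mice, and 92.5, 93.5 and 91.6% in P195A/-. The groups overlapped, and the odds ratio of P195A/P195A to wt was 1.19 (95% interval 0.768 to 1.85).

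At the Gria4 R/G site (chr9:4456006, exon 14 of 17, codon 765, AGA to GGA) the mice differed more within a group, with 59.5, 69.2 and 60.2% in wt, 63.1, 83.2 and 55.8% in P195A/+ mice, 75.0, 63.2, 68.2 and 55.6% in P195A/P195A mice, and 64.3, 69.7 and 66.3% in P195A/-. Within P195A/+, replicate 2 had a Wilson 95% interval of 75.0 to 89.1% and replicate 3 one of 46.9 to 64.4%, so these mice differed by more than counting error. The odds ratio of P195A/P195A to wt was 1.10 (0.693 to 1.75). The silent A before each R/G site stood at 2.83% in Gria2 (chr3:80692287), 2.84% in Gria3 (chrX:41654251) and 1.37% in Gria4 (chr9:4456007) over all libraries.

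In the kainate receptor genes the Q/R, I/V and Y/C sites were edited in most reads, with a wider spread at Grik1 than at Grik2. The Grik1 Q/R site (chr16:87940543, exon 13 of 18, codon 636, CAG to CGG) was edited at 82.4, 75.0 and 64.7% in wt, 72.2, 51.7 and 54.5% in P195A/+ mice, 58.3, 68.4, 68.4 and 76.2% in P195A/P195A mice, and 71.4, 70.0 and 38.9% in P195A/-. The lowest value, in P195A/- replicate 3, rested on 18 reads and its Wilson 95% interval ran from 20.3 to 61.4%. The groups overlapped, and the odds ratio to wt was 0.735 (95% interval 0.286 to 1.89) for P195A/P195A and 0.55 (0.195 to 1.55) for P195A/-, so differences within these intervals were not detectable at this depth.

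The Grik2 Q/R site (chr10:49244330, exon 13 of 17, codon 621, CAG to CGG) was edited at 77.3, 83.7 and 77.6% in wt, 82.4, 80.3 and 76.9% in P195A/+ mice, 80.2, 71.6, 81.0 and 78.2% in P195A/P195A mice, and 80.2, 84.4 and 78.0% in P195A/-. These values overlapped, with odds ratios to wt of 0.92 (0.587 to 1.44) for P195A/P195A and 1.08 (0.655 to 1.77) for P195A/-. The A 4 bases before it (chr10:49244334) would turn the methionine codon 620 into valine (ATG to GTG). Its level averaged 6.01% ± 3.73 in wt, 6.54% ± 1.14 in P195A/+ mice, 3.51% ± 0.843 in P195A/P195A and 2.65% ± 3.24 in P195A/- (SD, n = 3, 3, 4 and 3), and the comparison of P195A/- with wt had an unadjusted p of 0.035 and an adjusted p of 1.00 in edgeR's quasi-likelihood test with Benjamini-Hochberg adjustment.

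The I/V and Y/C sites lie 13 bases apart in exon 12 of Grik2. At the Y/C site (chr10:49272776, codon 571, TAC to TGC) the level averaged 91.3% ± 4.18 in wt, 88.4% ± 1.10 in P195A/+ mice, 87.3% ± 2.34 in P195A/P195A and 86.7% ± 2.14 in P195A/- (SD, n = 3, 3, 4 and 3). At the I/V site (chr10:49272789, codon 567, ATT to GTT) it averaged 78.5% ± 5.79, 81.5% ± 2.64, 80.4% ± 5.65 and 73.2% ± 5.60 in the same order. Neither site passed the test in any comparison.

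**Figure D1:**
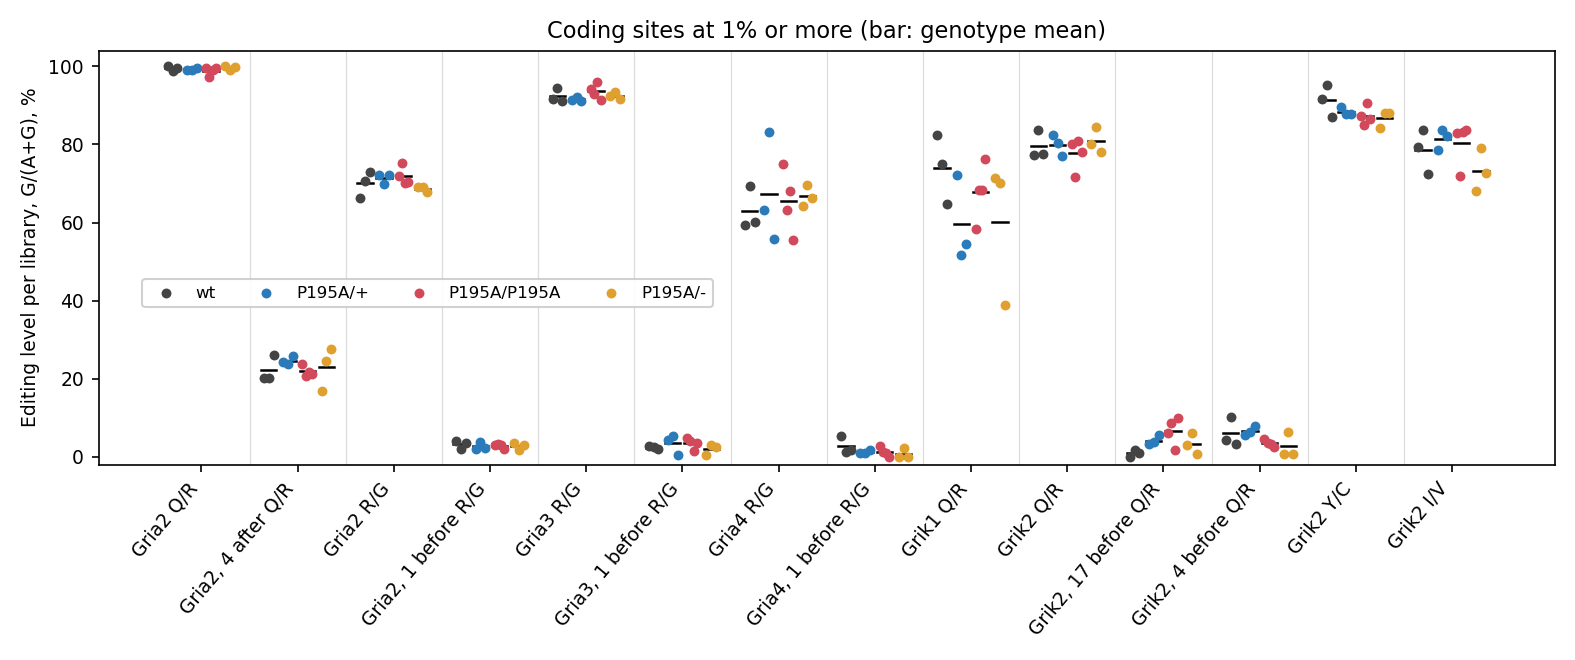
Editing level in percent (vertical axis) at the 14 coding sites with a level of at least 1% over all libraries (horizontal axis), 1 point per mouse coloured by genotype, with a bar at each group's mean. The Gria2 Q/R site sits between 97.2 and 100% in all mice, every genotype overlaps wt at the Q/R, R/G, I/V and Y/C sites, and the Grik1 Q/R site, with 11 to 29 reads per library, has the widest spread.

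The coding site that passed the test was a silent one. It lies 17 bases before the Grik2 Q/R site (chr10:49244347, first capital of the Grik2 Q/R window), at the third base of codon 615, where GGA and GGG both encode glycine. The level was 0, 1.80 and 0.833% in wt, 3.25, 3.70 and 5.50% in P195A/+ mice, 6.09, 8.60, 1.67 and 9.82% in P195A/P195A mice, and 2.94, 6.19 and 0.794% in P195A/-. All wt values were low, and P195A/P195A replicate 3 fell among them. The means were 0.878% ± 0.902 (SD, n = 3) in wt and 6.54% ± 3.60 (SD, n = 4) in P195A/P195A, on 93 to 136 reads per library. The count behind them was small: 3 edited reads in all 3 wt libraries, and 28 in the P195A/P195A libraries.

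The odds of an edited read at this Grik2 site were 7.15 times higher in P195A/P195A than in wt (95% interval 2.68 to 19.1), a log2 odds ratio of 2.84 (SE 0.722) with an adjusted p of 0.0371 in edgeR's quasi-likelihood test. P195A/+ had a log2 odds ratio of 2.18 against wt with an adjusted p of 0.80 in the same edgeR test, and P195A/- 1.76 with an adjusted p of 1.00. The direct comparison of P195A/- with P195A/P195A gave -1.08 with an edgeR adjusted p of 0.684, so a difference between these 2 genotypes was not shown. Leaving out any 1 of wt replicates 1, 2 or 3 ended the call, with edgeR adjusted p of 0.455, 0.0747 and 0.225, and so did leaving out P195A/P195A replicate 1, 2 or 4, with 0.0992, 0.110 and 0.325. It held without P195A/P195A replicate 3, with an edgeR adjusted p of 0.0144. With the replicate number as a block the edgeR adjusted p was 0.483. Replicate 4 exists only in P195A/P195A, so that mouse does not enter the genotype effect under the block.

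An intron site of Gria4 passed the test in the same comparison. This A in intron 14 (chr9:4437928, minus strand) lies 5041 bases from the nearest coding exon and 18078 bases after the R/G site. Its level was 13.9, 17.1 and 11.1% in wt, 46.9, 45 and 47.5% in P195A/+ mice, 68.6, 35.4, 56.8 and 35.8% in P195A/P195A mice, and 28.9, 20.9 and 27.3% in P195A/-, on 27 to 64 reads. Each mutant library was above each wt library, and the P195A/- libraries lay between wt and both other groups. The means were 14.05% ± 3.02 in wt, 46.5% ± 1.30 in P195A/+ mice, 49.2% ± 16.3 in P195A/P195A and 25.7% ± 4.23 in P195A/- (SD, n = 3, 3, 4 and 3).

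For the Gria4 intron site the log2 odds ratio of P195A/P195A to wt was 2.42 (SE 0.537, edgeR adjusted p = 0.00645). That of P195A/+ to wt was nearly as large, 2.35 (SE 0.549), and its edgeR adjusted p was 0.0862 (0.0253 where at least 20 reads per library were required). P195A/- against wt gave 1.02 with an edgeR adjusted p of 1.00, and P195A/- against P195A/P195A gave -1.39 with an edgeR adjusted p of 0.331. The call in P195A/P195A was lost without wt replicate 1, 2 or 3, with edgeR adjusted p of 0.115, 0.0516 and 0.0724, and without P195A/P195A replicate 1 or 3, with 0.118 and 0.0882. It held with the replicate block, at an edgeR adjusted p of 0.0124.

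The Gria4 site lies at the edge of a cluster of 7 sites on chr9:4437876-4437928, and none of the other 6 was called in any comparison. Summed over the cluster, the level averaged 9.21% ± 2.43 in wt, 15.0% ± 2.50 in P195A/+ mice, 15.7% ± 4.08 in P195A/P195A and 11.9% ± 1.2 in P195A/- (SD, n = 3, 3, 4 and 3). This sum includes the called site, and the other 6 sites were not summed without it. The R/G site of the same gene, given above, kept overlapping groups.

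In Gria3 the called site lies in intron 13, 36 bases after the R/G site (chrX:41654288), and differed between the mutant genotypes. The intron stretch is shown because the edited bases fall in an inverted repeat just inside the intron. It runs over chrX:41654252-41654300 on the plus strand and starts with the R/G site itself. Its capitals are, in order, the R/G site and the sites 19, 36 and 41 bases after it.
Gria3 intron: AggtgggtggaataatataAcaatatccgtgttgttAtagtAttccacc
The search covered 94 bases, chrX:41654207-41654300, which begin inside exon 13 and end with the stretch shown. The longest pairing found there without gaps, allowing A with T, G with C and G with T, matched 19 of 20 positions. Its arms are chrX:41654257-41654276 and chrX:41654281-41654300, with 4 bases between them. The second arm ends at the last base searched, so pairing of either arm or of the R/G site with bases further on was not tested. The first arm holds the site at 19 bases and the second the sites at 36 and 41 bases. This is a match of letters and no measurement of a structure.

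The level at this Gria3 site was 45, 41.9 and 54.3% in wt, 58.0, 64.9 and 54.9% in P195A/+ mice, 69.2, 57.4, 66.7 and 77.8% in P195A/P195A mice, and 41.4, 36.8 and 45.9% in P195A/-, on 57 to 101 reads. The P195A/P195A and P195A/- mice did not overlap, while the P195A/- mice overlapped wt. The means were 47.1% ± 6.47 in wt, 59.3% ± 5.12 in P195A/+ mice, 67.8% ± 8.38 in P195A/P195A and 41.4% ± 4.53 in P195A/- (SD, n = 3, 3, 4 and 3).

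The log2 odds ratio of P195A/- to P195A/P195A at the Gria3 site was -1.52 (SE 0.374, edgeR adjusted p = 0.0425). Against wt, P195A/P195A gave 1.18 (edgeR adjusted p = 0.199), P195A/+ 0.70 (0.818) and P195A/- -0.34 (1.00). Leaving out any P195A/- mouse ended the call, with edgeR adjusted p of 0.358, 0.268 and 0.129 without replicates 1, 2 and 3, as did leaving out P195A/P195A replicate 1, 3 or 4, with 0.158, 0.138 and 0.328. Without P195A/P195A replicate 2, the male of that group, it was 0.00934. With the replicate block, where P195A/P195A replicate 4 does not enter the genotype effect, the edgeR adjusted p was 0.473.

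**Figure D2:**
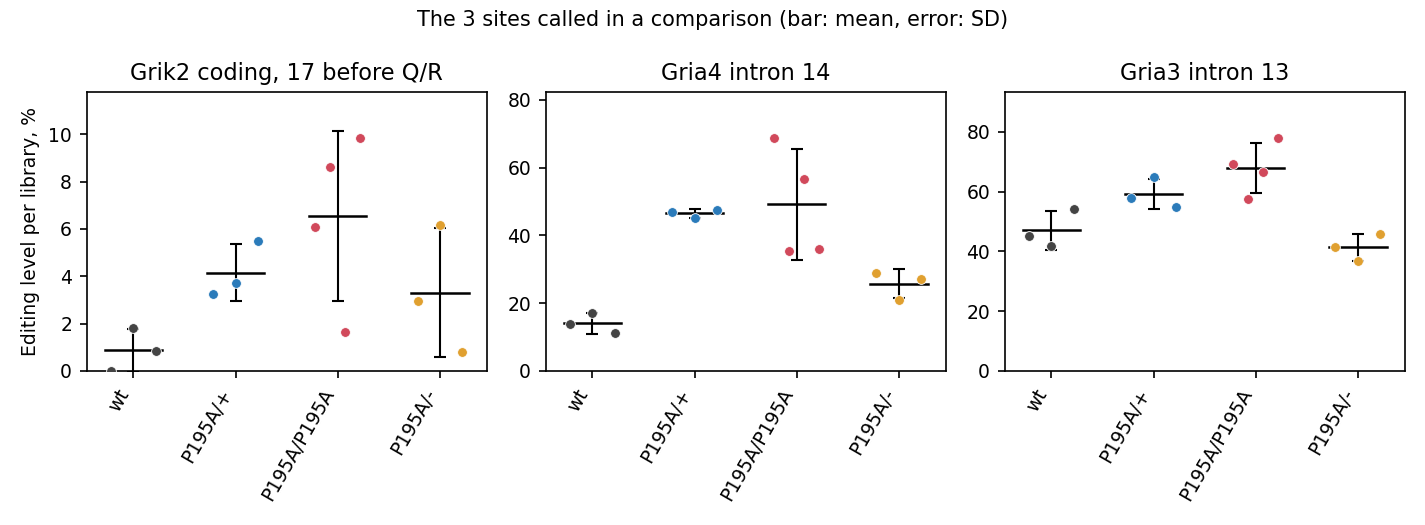
Editing level in percent (vertical axis) by genotype at the 3 member sites that passed the test, 1 point per mouse with the mean and SD of each genotype. The Gria4 intron site is at 11.1 to 17.1% in wt and 35.4 to 68.6% in P195A/P195A, the Gria3 intron site separates P195A/P195A from P195A/-, and the silent Grik2 site has 1 P195A/P195A mouse among the wt values.

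These calls stand against the following background. Of the member sites with at least 10 reads in each library compared and a pooled level of 1 to 99%, 0 of 186 were called in P195A/+ against wt, 2 of 161 in P195A/P195A against wt, 0 of 183 in P195A/- against wt and 1 of 166 in P195A/- against P195A/P195A. Over all sites tested in the brain the calls were 0.00713% of 14019, 0.277% of 11551 (all higher in P195A/P195A), 0.00705% of 14177 and 0.118% of 11818 (all lower in P195A/-). The limma test on log ratios called 0 sites in each of the 4 comparisons. At an unadjusted p under 0.05 the members had 8 sites higher and 5 lower in P195A/+, against 6.04% of all sites, 10 higher and 5 lower in P195A/P195A, against 7.97%, 2 higher and 5 lower in P195A/-, against 4.02%, and 5 higher and 7 lower between P195A/- and P195A/P195A, against 7.31%. Over all sites these counts were 664 higher and 183 lower in P195A/+, and 680 and 241 in P195A/P195A. In P195A/- they were 349 and 221, and between P195A/- and P195A/P195A 289 and 575. Comparisons with wt share the same 3 wt mice.

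The median log2 odds ratio over the members' sites was 0.12 in P195A/+ mice, 0.09 in P195A/P195A and -0.03 in P195A/-, each against wt, and -0.08 in P195A/- against P195A/P195A. Over all tested sites it was 0.21, 0.16, 0.07 and -0.09. The share of sites with a value above 0 was 55.9, 52.8, 48.6 and 45.8% for the members and 59.6, 57.3, 53.4 and 45.4% for all sites. The coding sites outside the level range of the test were compared by exact permutation, and the smallest of these p-values was 0.1 (18 to 25 sites per comparison, with 0.1 the smallest possible for 3 against 3 mice). In no comparison could this test give a p under 0.05.

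The mean level per mouse over the 13 member coding sites usable in all libraries was 45.1% ± 1.78 in wt, 44.8% ± 1.22 in P195A/+ mice, 44.9% ± 0.839 in P195A/P195A and 43.3% ± 2.37 in P195A/- (SD, n = 3, 3, 4 and 3). Over 130 intron sites of the members it was 15.5% ± 1.47, 17% ± 0.671, 16.6% ± 1.41 and 15.9% ± 0.980 in the same order. Over 124 coding sites of all genes the means were 18.7% ± 0.379, 20.2% ± 0.773, 19.9% ± 0.742 and 18.8% ± 0.696. Over 7186 intron sites of all genes they were 15.5% ± 0.725, 17.5% ± 0.424, 16.7% ± 0.216 and 16.3% ± 0.610. Over 9698 sites of all genes and all kinds they were 15.6% ± 0.636, 17.4% ± 0.369, 16.9% ± 0.239 and 16.2% ± 0.50. The mean of the member coding sites differed from wt by less than 1 wt SD in each of the 3 mutant genotypes.

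The listed intron sites differed between the genes in number and place. These are counts of known sites, not adjusted for read depth or gene length. The genes span 121386 bases (Gria2), 277748 (Gria3), 378339 (Gria4), 394366 (Grik1) and 693934 (Grik2). Grik2 held 226 intron sites in 46 clusters (sites up to 100 bases apart) over 8 introns, and Gria4 134 in 32 clusters over 5 introns. Gria2 held 20 in 6 clusters, Gria3 13 in 6 and Grik1 2. The largest clusters had 20 sites in Grik2 and 19 in Gria4. Most Gria3 sites were next to exons, with a median distance of 40 bases and 11 of 13 within 1000 bases, whereas the median distance was 9111 bases in Gria4 and 40389 bases in Grik2, with 1 site of each within 1000 bases.

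Among sites with at least 10 reads in all 13 libraries, the median intron level was 12.9% in Gria2 (8 sites), 1.49% in Gria3 (8 sites), 12.8% in Gria4 (61 sites) and 9.84% in Grik2 (63 sites). Among the same sites the highest pooled intron level was 46.8% in Gria2, 55.4% in Gria3, 66.5% in Gria4 and 87.3% in Grik2. A Gria4 site with fewer reads in some libraries (chr9:4508233) had a pooled level of 82.1%.

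**Figure D3:**
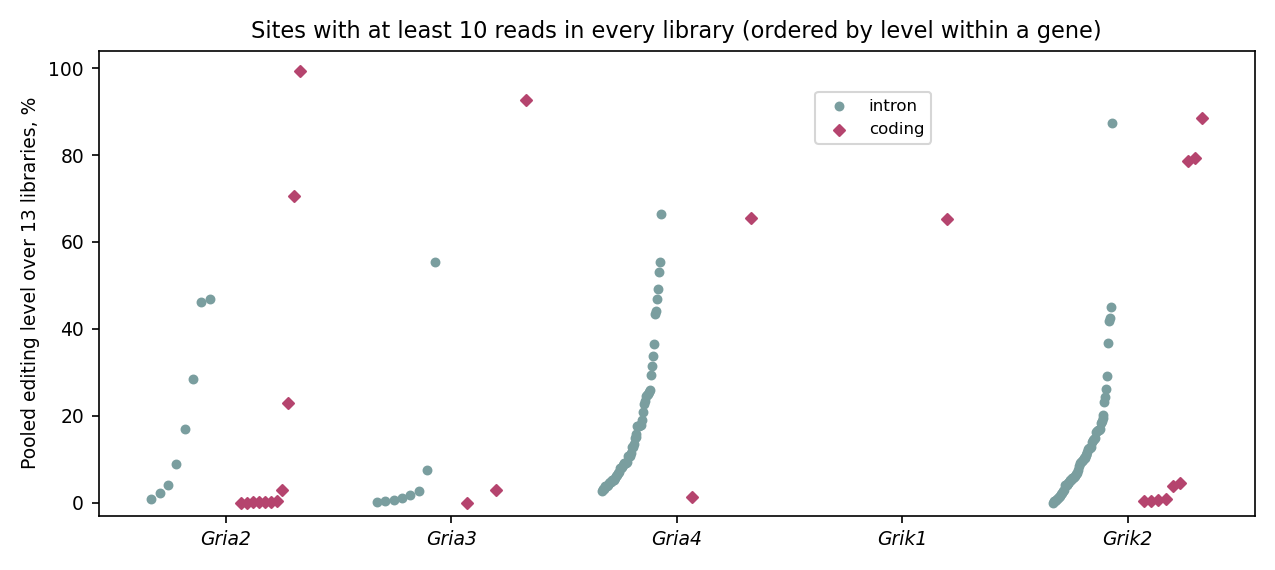
Editing level in percent over all 13 libraries (vertical axis) of every member site with at least 10 reads in each library, with sites ordered by level within each gene (horizontal axis) and coding and intron sites in different colours. The Gria2 Q/R site, at 99.3%, is the top point, and the intron sites of Grik2 reach 87.3% while the 9 Grik2 coding sites range from 0.307 to 88.5%.

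In Gria2, 8 of the 20 intron sites lie in intron 11, right after the Q/R exon, and the other 12 are in introns 6 and 2, with pooled levels of 2.41 to 14.2% and fewer reads. Stretches of intron 11 are shown because they hold its most edited bases. The first stretch, chr3:80706832-80706872, holds the site 60 bases after the Q/R site, and the second, chr3:80706629-80706669, holds 5 sites around 263 bases after it (both minus strand).
Gria2 intron: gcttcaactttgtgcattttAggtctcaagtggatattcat
Gria2 intron, farther: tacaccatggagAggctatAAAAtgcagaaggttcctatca
In 417 bases searched, the longest ungapped pairing matched 33 of 39 positions between chr3:80706888-80706926, which holds both capitals of the Gria2 Q/R window, and chr3:80706579-80706617 in the intron, with 270 bases between them. Both intron stretches shown lie between these arms. As in Gria3, this describes letters only.

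The Gria2 site 263 bases after the Q/R site (chr3:80706649) was edited at 43.1, 44.2 and 37.6% in wt, 51.6, 45.1 and 46.6% in P195A/+ mice, 45.8, 44.9, 53.1 and 46.9% in P195A/P195A mice, and 48.0, 38.9 and 58.0% in P195A/-. The P195A/+ and P195A/P195A values were all above the wt values, P195A/- overlapped wt, and the edgeR adjusted p against wt was 0.871 in P195A/+ and 0.762 in P195A/P195A. The neighbouring A (chr3:80706650), the Gria2 intron site with the most reads, averaged 27.2% ± 3.06 in wt, 32.9% ± 3.55 in P195A/+ mice, 25.7% ± 2.86 in P195A/P195A and 28.8% ± 4.34 in P195A/- (SD, n = 3, 3, 4 and 3). At 60 bases after the Q/R site (chr3:80706852), 1 P195A/+ mouse stood at 72.5%, and the other 12 mice were between 38.3 and 55.8%.

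**Figure D4:**
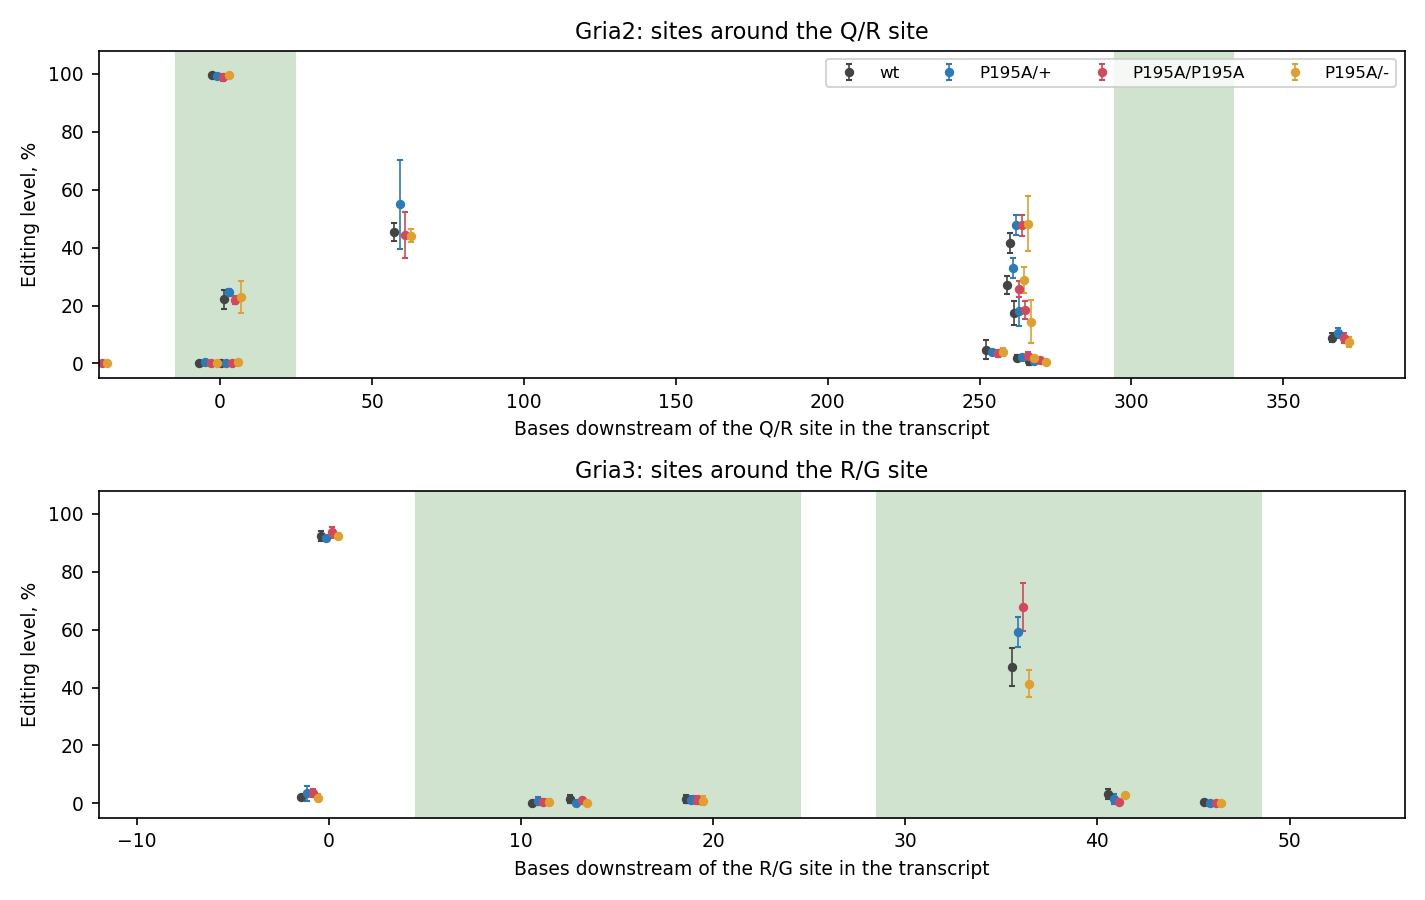
Mean editing level in percent per genotype, with SD (vertical axis), against the distance in bases downstream of the Gria2 Q/R site (top) and the Gria3 R/G site (bottom), with the complementary arms shaded and the genotypes drawn side by side at each site. The level drops from near 100% at the Gria2 Q/R site to means of 41.6 to 48.3% at 263 bases, and at 36 bases after the Gria3 R/G site P195A/P195A (67.8%) lies above P195A/- (41.4%).

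In the other genes the most covered and the most edited intron sites are given by level. The most edited site of Grik2 (chr10:49242461, 1869 bases after the Q/R site) averaged 88.3% ± 5.85 in wt, 83.1% ± 9.5 in P195A/+ mice, 89.0% ± 3.28 in P195A/P195A and 89.2% ± 6.40 in P195A/- (SD, n = 3, 3, 4 and 3). Its most covered intron site (chr10:49264698) was lower in all groups, between 0 and 12.1% in single libraries. The most edited intron site of Gria4 (chr9:4508233) was at 75.0, 72.2 and 68.2% in wt, 91.7, 86.7 and 94.7% in P195A/+ mice, 86.7, 79.2, 90.0 and 90.5% in P195A/P195A mice, and 75.0, 83.3 and 80.0% in P195A/-, on 6 to 30 reads. Every P195A/+ and P195A/P195A mouse was above every wt mouse there, and P195A/+ against wt had an unadjusted p of 0.0390 and an adjusted p of 0.803 in edgeR. The mean level over 9698 sites of all genes separated these groups in the same way. It was 15.1 to 16.3% in wt, 17.0 to 17.7% in P195A/+ and 16.6 to 17.2% in P195A/P195A. How many single sites of all genes separate so was not counted.

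The Gria4 intron site with the most reads (chr9:4438124) ranged from 0 to 19.2% over all mice. In edgeR's test of P195A/- against wt, the smallest unadjusted p among the members was at another Gria4 intron site (chr9:4630619). It stood at 0, 14.3 and 12.5% in wt and 0% in all P195A/- mice, and had an unadjusted p of 0.0068 and an adjusted p of 1.00 in edgeR. With 21 to 36 reads in the P195A/- libraries, a level of 0 allows Wilson upper limits of 9.64 to 15.5%. The 2 intron sites of Grik1 had 51 reads (chr16:87943763, 5.88%) and 28 reads (chr16:87940474, 21.4%) over the libraries that list them, too few for a comparison.

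Expression of the 5 genes did not pass the test in any comparison, while Adar itself did. Values are estimated counts scaled to a common library total (CPM). In bulk tissue, fewer cells of a type and less RNA per cell cannot be told apart. Library totals were 13539148 to 22399005 counts, and all listed markers of excitatory and inhibitory neurons, oligodendrocytes, astrocytes and microglia had counts in every library. Per kilobase of merged exon, the order of mean levels over all libraries was Gria2 (52.7 CPM per kb), Gria4 (36.5), Gria3 (27.0), Grik2 (16.7) and Grik1 (2.76).

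Gria2 stood at 805, 800 and 764 CPM in wt, 781, 865 and 707 in P195A/+ mice, 871, 918, 817 and 816 in P195A/P195A mice, and 844, 864 and 808 in P195A/-. The P195A/P195A mice and the P195A/- mice were above all wt mice, with log2 fold changes of 0.12 (95% interval -0.04 to 0.27) and 0.09 (-0.07 to 0.25), and P195A/+ gave -0.01. Gria3 was between 243 and 281 CPM in all mice, with log2 fold changes against wt of 0.03, 0.08 and 0.02 in P195A/+, P195A/P195A and P195A/-.

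Gria4 averaged 227.5 CPM ± 8.22 in wt, 243 ± 21.6 in P195A/+ mice, 234 ± 6.38 in P195A/P195A and 214 ± 34.7 in P195A/- (SD, n = 3, 3, 4 and 3). Its lowest value, 183 CPM, was in P195A/- replicate 2. In that library the 5 cerebellar marker genes summed to 316 CPM, against 608 to 848 in the other 12 libraries, and the part of this in the Gria4 value was not tested.

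Grik1, the least abundant of the 5, stood at 16.1, 15.3 and 15.7 CPM in wt, 18.3, 17.7 and 15.0 in P195A/+ mice, 18.7, 20.9, 18.3 and 19.3 in P195A/P195A mice, and 21.0, 22.9 and 22 in P195A/-. All P195A/P195A and P195A/- mice were above all wt mice. The log2 fold change against wt was 0.48 in P195A/- (SE 0.122, 95% interval 0.23 to 0.74, unadjusted p = 0.00112, adjusted p = 0.208 in edgeR's quasi-likelihood test), 0.30 in P195A/P195A (unadjusted p = 0.020, adjusted p = 0.83) and 0.12 in P195A/+. Between P195A/- and P195A/P195A it was 0.19 (95% interval -0.05 to 0.43).

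Grik2 averaged 197 CPM ± 17.5 in wt, 228 ± 23.5 in P195A/+ mice, 232 ± 29.96 in P195A/P195A and 226 ± 23.2 in P195A/- (SD, n = 3, 3, 4 and 3). The log2 fold changes against wt were 0.22, 0.24 and 0.20, with edgeR unadjusted p of 0.0718, 0.0379 and 0.0962, and no adjusted p passed. The summed CPM of 7 olfactory and neuroblast marker genes was 143 to 162 in P195A/P195A against 95.6 to 116 in wt, 78.7 to 84.8 in P195A/+ and 82.6 to 98.1 in P195A/-, and P195A/P195A did not overlap wt. In P195A/- the summed CPM of 5 oligodendrocyte markers was 6291 to 6704 against 5195 to 5852 in wt, that of 5 excitatory neuron markers 1947 to 1986 against 2067 to 2214, and that of 6 inhibitory neuron markers 847 to 899 against 959 to 1014. For the olfactory and neuroblast list, all P195A/+ mice also lay apart from wt, on the lower side. Every P195A/P195A mouse had a cerebellar sum (608 to 658 CPM) below all wt sums (701 to 766). The 4 astrocyte markers likewise summed to less there, at 1074 to 1194 CPM against 1211 to 1229. All other marker lists overlapped between P195A/P195A and wt. The part of these lists in the Grik1, Grik2 and Gria2 values, or in the editing calls, was not tested. Of the 7 olfactory and neuroblast markers 6 had counts in every library, and Tbx21 was at 0 in P195A/+ replicate 2 and P195A/- replicates 2 and 3.

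**Figure D5:**
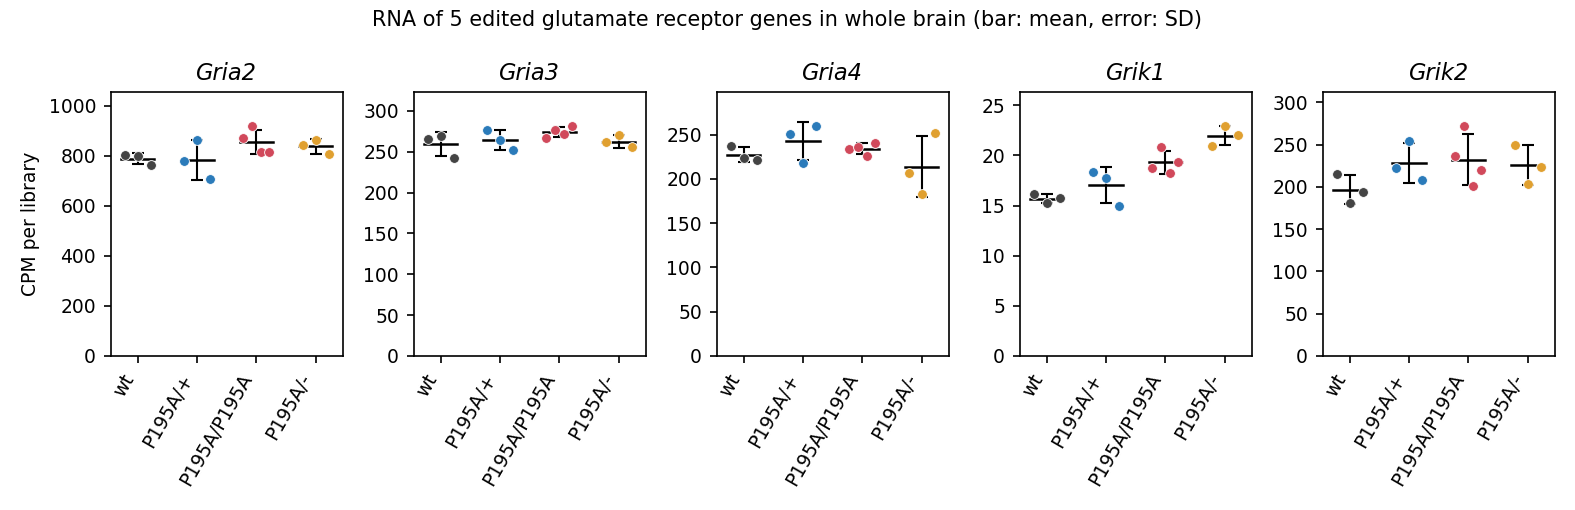
Expression in CPM (vertical axis, from 0) by genotype for the 5 genes, 1 point per mouse with the mean and SD of each genotype. Gria2 is the most abundant, the groups overlap for Gria3 and Gria4, and Grik1 averages 15.7 CPM in wt and 22 in P195A/-, a difference that did not pass the adjusted test.

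Of the 5 genes, 0 were called at an adjusted p under 0.05 in each comparison, against 0.01% of 19962 genes in P195A/+ against wt, 0.0501% in P195A/P195A against wt, 0.0351% in P195A/- against wt and 0.0401% in P195A/- against P195A/P195A. DESeq2 and limma-voom also called 0 of the 5 in each. However, DESeq2 gave Grik1 no adjusted p in P195A/- against wt, so that test could not call Grik1 there. At an unadjusted p under 0.05 in edgeR, the counts were 0, 2, 1 and 0 of the 5, against 4.48, 5.89, 10.6 and 6.82% of all genes.

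The editing enzymes were measured in the same libraries. Adar averaged 180 CPM ± 13.3 in wt, 240 ± 6.63 in P195A/+ mice, 323 ± 28.6 in P195A/P195A and 201 ± 4.28 in P195A/- (SD, n = 3, 3, 4 and 3). It rose in P195A/P195A against wt (log2 fold change 0.84, edgeR adjusted p = 5.91e-05) and was lower in P195A/- than in P195A/P195A (-0.68, edgeR adjusted p = 0.000773). In the order wt, P195A/+, P195A/P195A and P195A/-, Adarb1, the gene of ADAR2, averaged 305, 316, 303.8 and 305 CPM, with log2 fold changes against wt of 0.05, -0.01 and 0.00. Adarb2 was at 43.9, 42.1, 58.4 and 49.5 CPM, and its change in P195A/P195A (0.41) had an unadjusted p of 0.00946 and an adjusted p of 0.83 in edgeR. Gene counts do not tell the P195A allele from the wt allele.

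The other genes of the glutamate receptors, 20 further subunits and 23 auxiliary or scaffold proteins, were all tested, and 0 of 43 were called in each comparison by edgeR, DESeq2 or limma-voom. At an unadjusted p under 0.05, 1 was higher and 6 lower in P195A/+ mice, 2 higher and 0 lower in P195A/P195A mice, and 4 higher and 3 lower in P195A/-, each against wt, and 0 higher and 2 lower in P195A/- against P195A/P195A. The shares over all genes were 4.48, 5.89, 10.6 and 6.82%, with 392 genes higher and 503 lower of 19962 in P195A/+. The median log2 fold changes of the 43 genes were -0.04, 0.02, 0.00 and -0.01, and those of all genes 0.00, 0.01, 0.02 and 0.00. The smallest unadjusted p in P195A/- against wt was that of Cacng5, an AMPA receptor auxiliary protein with a log2 fold change of -0.55 (SE 0.127), an unadjusted p of 0.000507 and an adjusted p of 0.187 in edgeR. Grik5, a kainate receptor subunit that assembles with Grik1 and Grik2 products, followed with 0.28, an unadjusted p of 0.00585 and an adjusted p of 0.281 in edgeR. In P195A/P195A against wt the smallest was that of Grm8, a metabotropic receptor (0.40). In P195A/+ against wt the smallest were those of Grik3, a kainate subunit (-0.23), and Cacng3, an AMPA receptor auxiliary protein (-0.48). In P195A/- against P195A/P195A they were Cacng5 (-0.42) and Neto2, an auxiliary protein of kainate receptors (-0.22).

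The genes whose log2 CPM followed the members most closely over the 13 libraries are given as a description, out of 17340 genes with a mean of at least 1 CPM. For Gria2 they were Zfp277 (Pearson r = 0.95), Zfyve1 (0.94) and Gm49659 (0.92), for Gria3 Dyrk2 (0.85), Man1a (0.84) and Rnf217 (0.81), and for Gria4 Ppm1d (0.94), Cdkn1b (0.91) and Cep76 (0.89). For Grik1 they were Csmd3 (0.95), Nrg3 (0.90) and Dennd2c (0.90), and for Grik2 Gm45263 (0.96), Gm42447 (0.93) and Phf20l1 (0.93). The points share library depth and genotype. Among the 5 genes themselves r ran from -0.47, between Gria2 and Gria4, to 0.66, between Gria2 and Grik1.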

How the data were processed

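Whole-brain RNA of 13 mice was sequenced in strand-specific libraries. The authors' deposited table holds estimated counts per gene, made with Salmon after trimming with fastp 0.19.5, per the submitters' processing notes; 51482 of 54307 gene IDs matched a symbol. Reads of A, C, G and T at known editing sites were counted by the authors with JACUSA2 2.0.0-RC5 on mm10, per the file headers, with duplicates left out, a minimum coverage of 3 and a depth limit of 3000. Which aligner was used is not given in the sources here. Of 3740 pairs of site and library listed in more than 1 comparison table, 0 differed.

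Groups came from the genotype labels. The estimated counts were rounded, filtered with filterByExpr and fitted for all 13 libraries in 1 model with edgeR 4.0.16 (TMM, robust quasi-likelihood, R 4.3.3), and p-values were adjusted by the Benjamini-Hochberg method over 19962 genes. The common biological coefficient of variation was 19.1%. Editing was tested with edgeR's quasi-likelihood test on the A and G reads, with 1 edited and 1 unedited column per library, on sites with at least 10 reads in each library and a pooled level of 1 to 99%, adjusted over all sites of a comparison. Odds-ratio intervals came from the estimate and its SE. On simulated data the expression test recovered 179 of 200 changed genes (median size 1.00 on the log2 scale) with 6 false calls among 19962 genes. All these genes were changed by the same size and drawn from the more abundant genes, so smaller changes are not covered. The editing test recovered 177 of 200 changed sites (median log2 odds ratio 2.98 in size) with 4 false calls among 11321 sites. These changed sites were drawn only from sites of middle level with more reads than the test requires. The recovery therefore does not describe smaller changes, sites of low level or the shallower intron sites.

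The members and gene lists were chosen with earlier results of these data known. Named were the 5 genes, the 3 Adar family genes, the 3 genes most correlated with each member, the 2 other receptor genes with the smallest p per comparison (1 of them is not reported here), coding sites with at least 10 reads, called sites, each member's intron site with the most reads and with the highest level, and each comparison's member site with the smallest p. Coding positions follow 1 coding transcript per gene from GENCODE M21. Alternatives were DESeq2 1.42.0, limma 3.58.1, other scaling, filters and read minimums, a replicate block and leaving out each replicate. Sex as a covariate was fitted for expression only, so no editing call was checked with a sex term.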

Additional observations from a re-analysis of the deposited data

Results flagged for a closer look

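In P195A/P195A replicate 2, the male of that group, 2 editing levels lay far from the other 3 mice. The level at the Grik2 I/V site was 71.9% there and 82.8, 83.1 and 83.7% in the others. The level at the Gria2 intron site chr3:80706650 was 29.95% there and 24.0 to 24.5% in the others. These were 2 of 28 groups of 4 values compared, and chance flags about 1 in 20.

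Reads assigned to the strand opposite to the gene also carried the edited base at the R/G positions, where they appear as C against T and do not enter the levels above. At the Gria2 R/G position 65.6% of 90 such reads in 10 libraries carried C (Wilson 95% interval 55.3 to 74.6%). At the silent position before it the share was 6.59% of 91 reads (3.06 to 13.6%). At the Gria3 R/G position it was 83.7% of 49 reads in 9 libraries (71.0 to 91.5%).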

How the results depend on the processing

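The count of members called by expression was 0 under all 54 alternatives, and so was that of the other receptor genes. Grik1 in P195A/- against wt had no adjusted p from DESeq2 and could not be called there. Member sites called in P195A/P195A against wt (2 as reported) numbered 1 with at least 5 reads, 1 without a level filter, 0 with limma on log ratios, 1 with the replicate block and 0 to 1 on leaving out a replicate. In P195A/- against P195A/P195A (1 as reported) they numbered 0 with at least 5 reads, without a level filter, with limma and with the block, and 0 to 1 on leaving out a replicate. In P195A/+ against wt (0 as reported) there was 1 with at least 20 reads. The direction at the 3 called sites was the same in all alternatives. The log2 fold changes that reversed on leaving out a replicate ran from -0.0820 to 0.0590 for Gria2 and -0.0126 to 0.0665 for Gria3 in P195A/+ against wt, from -0.0302 to 0.0495 for Gria3 and -0.209 to 0.00558 for Gria4 in P195A/- against wt, and from -0.121 to 0.0333 for Grik2 in P195A/- against P195A/P195A. The cause was not tested. Over all genes DESeq2 called 19, 19, 200 and 52 genes in the 4 comparisons, where edgeR called 2, 10, 7 and 8. Without the filter on low counts edgeR called 7, 12, 16 and 29, with only the 2 genotypes compared 11, 5, 16 and 5, with DESeq2's size factors 12 in the last, and on leaving out a replicate 1 to 2, 5 to 13, 2 to 6 and 5 to 15. Over all sites, P195A/P195A against wt had 32 calls as reported, 19 with at least 5 reads, 42 with at least 20, 19 without a level filter, 16 with the block and 9 (without wt replicate 1) to 27 on leaving out a replicate. P195A/- against P195A/P195A had 14, 11, 26, 6, 10 and 4 (without P195A/- replicate 3) to 17 in the same order. The limma test called 0 sites in all comparisons, and the counts of P195A/+ and P195A/- against wt, 1 as reported, ran from 0 to 2. Replicate numbers are shared between groups, and the labels do not say what they stand for. Deviations of same-numbered libraries from their group means correlated by -0.07 to 0.12 in expression and -0.02 to 0.01 in editing. They were not treated as pairs. In wt, P195A/+ and P195A/- replicate 3 was the male, so there the replicate block also separated the sexes. Replicate 4 exists only in P195A/P195A and does not enter the genotype effect under the block. Depth limits intron sites and Grik1 most: the tested intron sites had a median of 22.5 to 28 reads per library and the tested coding sites 114 to 120.5.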
